A study of Mus musculus with 9 samples.

Results

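The genes described here are 10 genes of antigen presentation, taken by name from the 40993 genes of the expression table of BV2 cells: H2-D1, H2-K1, B2m, Tap1, Tap2 and Tapbp of the class I pathway, and H2-Aa, H2-Ab1, Cd74 and Ciita of the class II pathway. BV2 is a line of immortalized mouse microglia, so all libraries came from 1 cell line and no other genotype was compared. The treatment was MNPs@SiO2(RITC), a magnetic particle with a cobalt ferrite core and a silica shell that holds the dye rhodamine B isothiocyanate. Polyadenylated RNA was sequenced after 12 h in 3 libraries of non-treated control cells, 3 libraries of cells given 10 µg/ml and 3 libraries of cells given 100 µg/ml. The labels give no culture, passage or date for a library, so p-values measure the spread between these libraries, which may be technical. In such bulk RNA, fewer cells that express a gene and less of its RNA per cell cannot be told apart.

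Class I molecules show peptides from inside the cell to CD8 T cells and to natural killer cells, and nearly every nucleated cell makes them. A class I molecule pairs a heavy chain, such as those encoded by H2-D1 and H2-K1, with beta-2-microglobulin from B2m. The transporter made of TAP1 and TAP2 brings cytosolic peptides into the endoplasmic reticulum, where tapasin, the product of Tapbp, holds the empty molecule beside it. Class II molecules show peptides from endosomes to CD4 T cells. They consist of an alpha and a beta chain, encoded among others by H2-Aa and H2-Ab1, which the invariant chain from Cd74 escorts, and their transcription depends on the coactivator CIITA from Ciita. Microglia in a resting brain hold little class II, and interferon-gamma is the classical inducer of both pathways.

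The BV2 cells expressed the class I pathway, while the class II chain genes among the 10 were listed at 0. B2m was at 702 FPKM and H2-D1 at 202 FPKM as a mean over the 9 libraries, where FPKM counts fragments relative to the length of the transcript and to all mapped fragments, so that levels of genes can be compared. H2-Aa and H2-Ab1 were listed at 0 in all 9 libraries, and Ciita did not exceed 0.0373 FPKM. H2-Aa, H2-Ab1 and Ciita were too low to be tested. None of the 7 tested genes passed the test at either dose, and the values of each overlapped between the groups.

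The heavy chains belong to a family with near copies, which matters for how reads are shared among genes, so the stretches that separate and unite H2-D1 and H2-K1 are shown. Over the 5 coding exons that have the same length in both genes, 72 of 894 bases differed and 91.9% were identical. Exon 3, which encodes the alpha-2 domain of the peptide groove, differed at 33 of 276 bases, and exon 4, which encodes the membrane-near alpha-3 domain, at 11 of 276. The 90 bases of exon 3 with the most differences are given in GRCm38, sense strand, with the 17 differing bases in capitals. They lie at chr17:35263984-35264073 (plus strand) in H2-D1 and at chr17:33999312-33999401 (minus strand) in H2-K1.
H2-D1 exon 3: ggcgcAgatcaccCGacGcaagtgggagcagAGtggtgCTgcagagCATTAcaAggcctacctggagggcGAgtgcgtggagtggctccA
H2-K1 exon 3: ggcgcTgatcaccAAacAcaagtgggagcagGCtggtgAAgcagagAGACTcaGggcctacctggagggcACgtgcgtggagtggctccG
In contrast, 90 bases of exon 4 were the same letter for letter at chr17:35265911-35266000 (plus strand, H2-D1) and chr17:33997344-33997433 (minus strand, H2-K1), with no capitals because nothing differed.
H2-D1 and H2-K1 exon 4: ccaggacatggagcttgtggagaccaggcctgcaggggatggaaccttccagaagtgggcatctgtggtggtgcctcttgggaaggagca

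A read of 100 bases could still be placed in most of each transcript. Of the 2003 stretches of 100 bases in the H2-D1 transcript, 93 (4.64%) occurred in a transcript of another gene, most often of H2-Q1. None of the 1520 stretches in the H2-K1 transcript did, and none in the transcripts of B2m, Tap1, Tap2, H2-Aa, H2-Ab1, Cd74 or Ciita. In Tapbp 3 stretches (0.107%) were shared. For 2 other class I genes the share was larger, at 7.28% in H2-T23 and 14.2% in H2-T22, and values of these genes and of H2-D1 therefore depend on how the authors' software split shared reads.

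The promoters of 3 of the genes are shown because they belong to 2 expressed genes and 1 gene listed at 0. The sequences are RefSeq's, in GRCm38.p6 and in the direction of transcription, and 6 of the 10 genes had an entry in the promoter table. The others with an entry (H2-D1, Tap1 and Tapbp) are not printed because their windows lie in annotated exons. The letters searched on both strands of the 250 bases before the start were GAAANNGAA (core of the interferon-stimulated response element), TTCNNNGAA (core of the gamma-activated site), GGGANTTTC (kappa B), CCAAT (core of the Y box) and TGACGTCA (core of the X2 box). The core of the palindromic kappa B element, GGGATTCCC, was added with the other matches known. Capitals mark the matches, of which none overlap one another. The promoter of B2m lies at chr2:122147437-122147685 (plus strand), that of H2-K1 at chr17:34000348-34000597 (minus strand) and that of H2-Aa at chr17:34287824-34288073 (minus strand).
B2m promoter: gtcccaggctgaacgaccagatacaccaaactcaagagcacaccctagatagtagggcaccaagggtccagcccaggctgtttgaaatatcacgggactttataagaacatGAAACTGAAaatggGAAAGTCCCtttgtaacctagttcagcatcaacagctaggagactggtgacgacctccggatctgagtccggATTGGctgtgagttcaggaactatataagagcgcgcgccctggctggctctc
H2-K1 promoter: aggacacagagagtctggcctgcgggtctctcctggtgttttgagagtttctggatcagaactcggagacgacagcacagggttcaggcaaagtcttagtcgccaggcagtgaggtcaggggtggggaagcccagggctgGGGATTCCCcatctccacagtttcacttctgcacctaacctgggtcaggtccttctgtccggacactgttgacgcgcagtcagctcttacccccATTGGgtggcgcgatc
H2-Aa promoter: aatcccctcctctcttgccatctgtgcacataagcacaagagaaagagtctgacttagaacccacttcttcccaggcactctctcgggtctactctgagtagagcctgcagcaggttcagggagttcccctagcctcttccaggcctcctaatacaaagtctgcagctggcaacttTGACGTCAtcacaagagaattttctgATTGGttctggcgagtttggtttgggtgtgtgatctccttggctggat
B2m held GAAACTGAA at -139 to -131, the kappa B letters at -125 to -117 and the Y box core at -53 to -49, counted from the base before the start. H2-K1 has 2 entries with different starts, of which the one without annotated exon bases is printed. It held the palindromic kappa B core at -110 to -102 and the Y box core at -16 to -12, which in the other entry lie at -124 to -116 and -30 to -26, with a further Y box core at -6 to -2. H2-D1 has 1 entry, and its window held the palindromic kappa B core at -170 to -162 and the Y box core at -76 to -72 and -53 to -49. H2-Aa held the X2 box core at -74 to -67 and the Y box core at -48 to -44. Of all 32851 promoters in the table, 7.13% held GAAANNGAA, 7.02% TTCNNNGAA, 0.941% GGGANTTTC, 0.301% GGGATTCCC, 33.8% CCAAT and 1.55% TGACGTCA. Tap1 and Tapbp matched the Y box core only. A match describes these letters and is not evidence that a factor binds there. Elements with other letters are missed by this search, so the lack of a match does not separate class I from class II promoters.

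B2m (ENSMUSG00000060802) lies on chromosome 2 at 122147686 to 122153083, on the plus strand. It was the most abundant of the 10 genes and ranked 54 among all genes of the table. In the control libraries it measured 816.8, 698.5 and 679.8 FPKM, at 10 µg/ml 667.9, 683.3 and 730.6 FPKM, and at 100 µg/ml 760.3, 632.7 and 645.0 FPKM. Replicate 1 was the highest in the control group and in the 100 µg/ml group, and the groups overlapped. The group means were 732 ± 74.3, 694 ± 32.7 and 679 ± 70.4 FPKM (SD, n = 3 each).

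H2-D1 (ENSMUSG00000073411) lies on chromosome 17 at 35262730 to 35267499, on the plus strand, and H2-K1 (ENSMUSG00000061232) at 33996017 to 34000333 of the same chromosome, on the minus strand. H2-D1 measured 197.7, 199.1 and 195.4 FPKM in control cells, 191.0, 201.3 and 205.2 FPKM at 10 µg/ml, and 238.8, 191.8 and 199.8 FPKM at 100 µg/ml. H2-K1 measured 36.8, 36.9 and 35.6 FPKM in control cells, 38.2, 36.8 and 38.3 FPKM at 10 µg/ml, and 42.9, 34.4 and 36.7 FPKM at 100 µg/ml. For both heavy chains replicate 1 at 100 µg/ml was the highest of the 9 libraries, and the other two libraries at that dose lay near the control values. H2-D1 made up between 83.3% and 84.8% of the summed FPKM of these 2 heavy chains in each library, so H2-D1 was about 5 times H2-K1 in every group. The ratio was 5.42 ± 0.0647 in control cells, 5.28 ± 0.244 at 10 µg/ml and 5.53 ± 0.0729 at 100 µg/ml (SD, n = 3 each).

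The peptide transporter genes were expressed at a lower level than the chains they serve. Tap2 (ENSMUSG00000024339, chromosome 17, 34203527 to 34216321, plus strand) measured 10.1, 9.62 and 10.03 FPKM in control cells, 10.7, 9.41 and 10.3 FPKM at 10 µg/ml, and 9.69, 8.74 and 8.88 FPKM at 100 µg/ml. Replicates 2 and 3 at 100 µg/ml were below every other library, and replicate 1 was above the lowest control library, so the groups overlapped by that library. Tap1 (ENSMUSG00000037321, chromosome 17, 34187553 to 34197225, plus strand) measured 5.05, 6.30 and 5.53 FPKM in control cells, 6.86, 5.50 and 5.58 FPKM at 10 µg/ml, and 5.50, 5.31 and 4.92 FPKM at 100 µg/ml. All 3 groups of Tap1 overlapped, and the highest single value was replicate 1 at 10 µg/ml. Tapbp (ENSMUSG00000024308, chromosome 17, 33915899 to 33929288, plus strand) measured 37.2, 46.3 and 47.5 FPKM in control cells, 48.9, 44.0 and 46.2 FPKM at 10 µg/ml, and 47.3, 40.4 and 42.0 FPKM at 100 µg/ml. Control replicate 1 was the lowest of the 9 libraries for Tapbp and the highest for B2m.

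**Figure D1:**
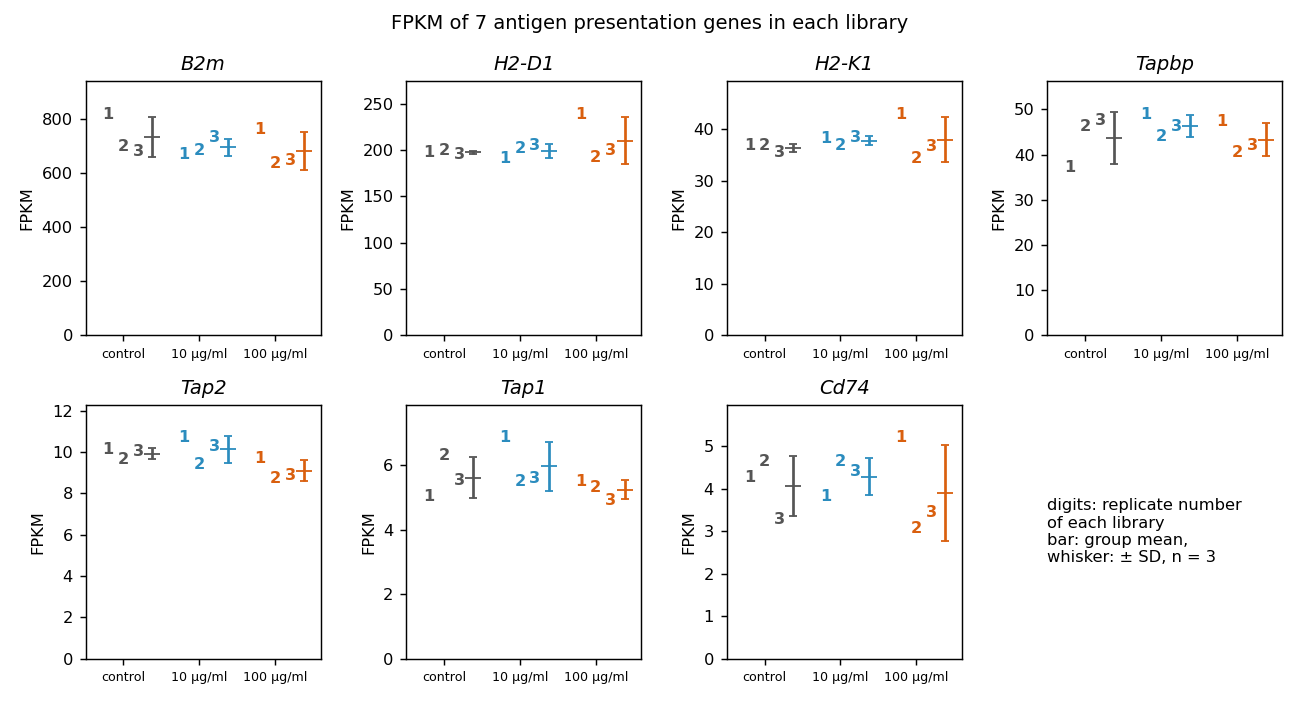
FPKM on the vertical axis of the 7 tested genes, 1 panel a gene, with each library drawn as its replicate number and the mean ± SD (n = 3) beside each of the 3 groups. In all 7 panels replicate 1 is the highest library at 100 µg/ml, and the groups overlap.

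Of the class II genes studied, H2-Aa, H2-Ab1 and Ciita lay below all class I genes studied, while the range of Cd74 overlapped that of Tap1. H2-Aa (ENSMUSG00000036594, chromosome 17, 34282744 to 34287827, minus strand) and H2-Ab1 (ENSMUSG00000073421, 34263209 to 34269418, plus strand) were listed at 0 in all 9 libraries. The file holds no counts, so a limit on a value of 0 rests on the estimated depth of 13000000 to 16200000 fragments per library, at which 1 fragment would be worth about 0.0746 FPKM in H2-Aa and 0.0684 FPKM in H2-Ab1. Elsewhere in the deposited values 9 genes were over 1000 FPKM in one library and at 0 in another, so a single 0 may be a failed estimate. Ciita (ENSMUSG00000022504, chromosome 16, 10488178 to 10527564, plus strand) was listed at 0 in 6 libraries and at 0.0117 and 0.0331 FPKM in control replicates 1 and 3 and 0.0373 FPKM in replicate 2 at 100 µg/ml. At the estimated depths none of these values corresponds to more than about 2.02 fragments.

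Cd74, the invariant chain gene (ENSMUSG00000024610, chromosome 18, 60803848 to 60812646, plus strand), was detected in every library. It measured 4.28, 4.64 and 3.29 FPKM in control cells, 3.81, 4.63 and 4.41 FPKM at 10 µg/ml, and 5.20, 3.07 and 3.44 FPKM at 100 µg/ml. Its highest and its lowest value both came from the 100 µg/ml group. With an estimated 48.6 to 102 fragments a library it was also the least precise of the tested genes, with a coefficient of variation of 17.6% over the 9 libraries against 6.43% to 10.8% for the class I genes.

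In the order of mean level over the 9 libraries, B2m (702 FPKM) was followed by H2-D1 (202), Tapbp (44.4), H2-K1 (37.4), Tap2 (9.72), Tap1 (5.62), Cd74 (4.09) and Ciita (0.00912). Tapbp and H2-K1 were neighbours whose ranges over the 9 libraries overlapped, as were Tap1 and Cd74, although within each of the 9 libraries Tapbp was above H2-K1 and Tap1 above Cd74. The ranges of all other neighbours did not overlap. Among the genes tested, B2m stood at the 99.5th percentile of mean level, H2-D1 at the 96.8th, H2-K1 at the 73.4th and Tap1 at the 21.3rd.

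The other chain and loading genes of class II were low or listed at 0 as well. Of the 11 genes on that list, 5 were listed at 0 in all libraries, H2-Aa and H2-Ab1 among them with H2-Eb1, H2-Eb2 and H2-Ea-ps. H2-DMb1, the beta chain of the peptide exchange factor, was at 4.33 FPKM, while its partner H2-DMa was at 0.442 and H2-Oa, a chain of its inhibitor, at 0.206 FPKM. The factors that CIITA joins at class II promoters were present, with Nfya at 92.8, Nfyc at 24.7 and Creb1 at 23.8 FPKM. All 6 genes of endosomal processing were expressed, led by the cathepsins Ctsd at 1646, Ctsb at 1166 and Ctsl at 719 FPKM. Cathepsins serve the lysosome of every cell and are not particular to class II. Of the 13 class I heavy chain genes listed, 8 had means of 1 FPKM or more, of which H2-T23 (9.99 FPKM) and H2-T22 (8.33 FPKM) came after H2-D1 and H2-K1. The chaperones Calr (631), Canx (300) and Pdia3 (274 FPKM), which help many glycoproteins to fold, were more abundant than H2-D1.

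**Figure D2:**
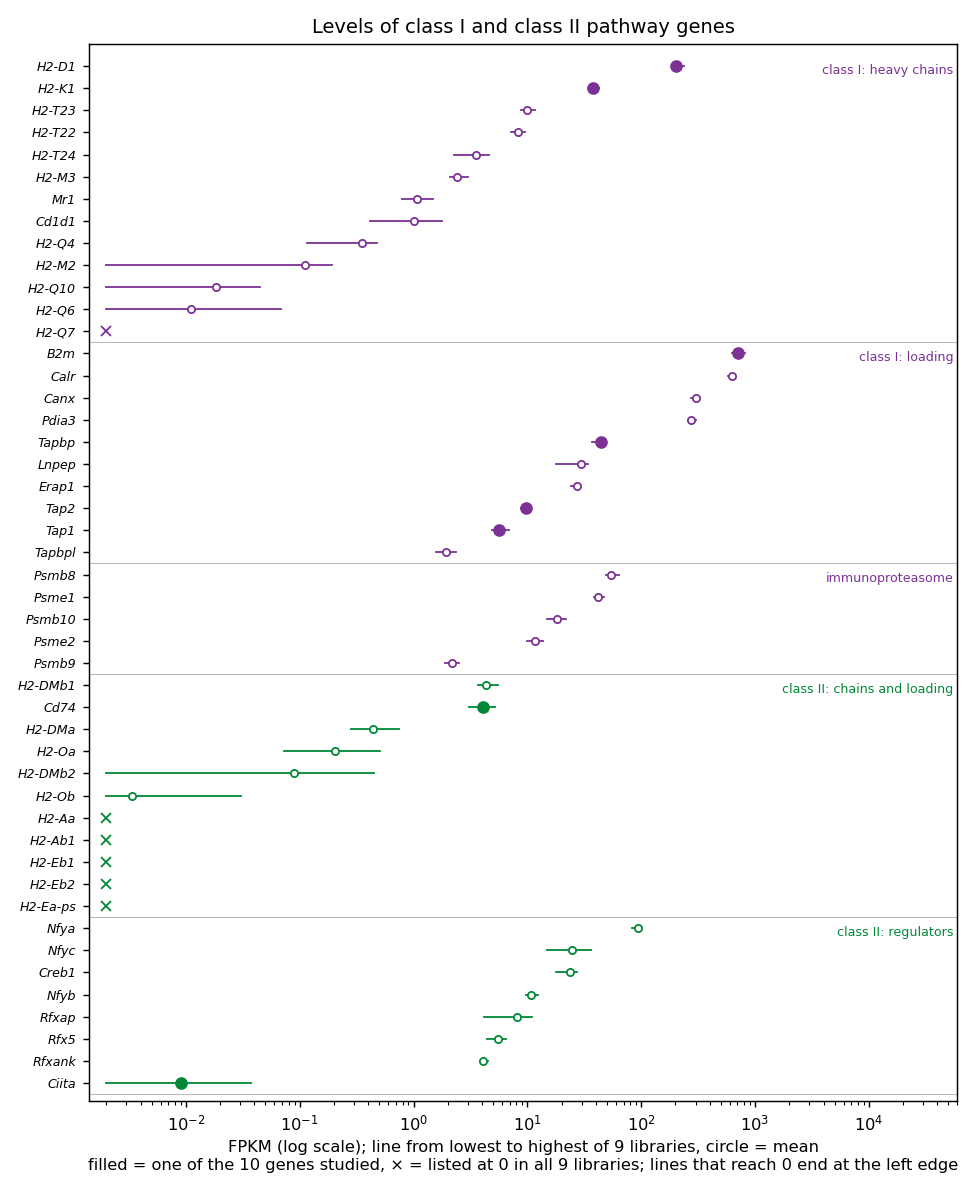
Mean FPKM over the 9 libraries (circles, log axis) and the range from the lowest to the highest library (lines) for class I genes (purple) and class II genes (green), with filled circles for the genes studied here and crosses for genes listed at 0. B2m at 702 FPKM is at the high end, Cd74 at 4.09 FPKM and H2-DMb1 at 4.33 FPKM lead the class II chains, and 5 class II genes are listed at 0.

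The cells carried the RNA of macrophages and microglia and little of other classes that could bring in class II. Of 12 microglia and macrophage markers 10 reached a mean of 1 FPKM, among them Cd68 at 413, Tyrobp at 246 and Spi1 at 135 FPKM, while Cx3cr1 (0.037 FPKM) and P2ry12 (0.093 FPKM) were near 0. The summed level of that list was 1278 to 1467 FPKM in control cells, 1286 to 1373 FPKM at 10 µg/ml and 1204 to 1373 FPKM at 100 µg/ml. Of 6 dendritic cell markers, Itgax, which macrophages also express, exceeded 1 FPKM and Flt3 and Cd209a were listed at 0, with a summed level of 2.12 to 2.597 FPKM over all libraries. Of the B cell markers Cd79a was listed at 0 and the summed level did not exceed 0.914 FPKM, and of 6 T cell markers 4 were listed at 0 and the sum did not exceed 0.175 FPKM. The sums did not exceed 0.980 FPKM for 5 astrocyte markers, of which 1 was listed at 0, 0.169 FPKM for 5 neuronal markers, of which 4 were, and 1.44 FPKM for 5 oligodendrocyte markers, of which 2 were. Summed FPKM per library ranged from 473547 to 522812 over all genes, and replicate 1 at 100 µg/ml had the highest sum.

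To ask whether the particles changed these genes, log2(FPKM + 1) was compared between groups with limma over the 11161 genes whose mean reached 1 FPKM, with Benjamini-Hochberg adjustment over all of them and a threshold of 0.05. The scale understates changes of low genes such as Cd74. Of the 10 genes 7 entered the test, and H2-Aa, H2-Ab1 and Ciita did not reach the minimum level.

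Between 100 µg/ml and control cells none of the 7 genes was called, where 2.11% of all tested genes were (0.708% higher and 1.41% lower). At an unadjusted p under 0.05 the count was also 0 of 7, beside 19.4% of all genes. None of the 7 had all libraries of one group above all of the other, beside 23.8% of all genes. The log2 fold change was 0.083 for H2-D1 (SE 0.079, limma adjusted p = 0.611), 0.054 for H2-K1 (SE 0.076, limma adjusted p = 0.746) and -0.11 for B2m (SE 0.093, limma adjusted p = 0.577). The small positive values of the heavy chains came from replicate 1: without that library they were -0.012 for H2-D1 and -0.035 for H2-K1. The log2 fold change was -0.11 for Tap2 (SE 0.068, limma adjusted p = 0.408), -0.083 for Tap1, -0.0089 for Tapbp and -0.063 for Cd74, for the latter genes with adjusted p from 0.711 to 0.973 in limma. The median of the 7 was -0.063, with 5 of 7 below 0, and 50.4% of all tested genes were below 0 with a median of -0.0016.

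The intervals give the sizes of change that remain possible on the log2(FPKM + 1) scale. At 100 µg/ml against control the 95% confidence interval of the log2 fold change ran from -0.095 to 0.26 for H2-D1, from -0.12 to 0.23 for H2-K1, from -0.32 to 0.10 for B2m and from -0.27 to 0.041 for Tap2. It ran from -0.32 to 0.15 for Tap1 and from -0.24 to 0.22 for Tapbp. The widest interval, from -0.45 to 0.32, was that of Cd74. In this comparison no interval on this scale reached 0.5 in either direction, and this does not show that the genes were the same. For Cd74 the SE was 0.169 on this scale and 0.204 with a pseudocount of 0.1, so larger changes of Cd74 are not excluded.

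Between 10 µg/ml and control cells no gene of the table was called (0% of 11161, and 0% in either direction), and limma gave an adjusted p of 1 for each of the 7 genes. The count at an unadjusted p under 0.05 was 0 of 7 beside 3.28% of all genes, and the count without overlap 0 of 7 beside 10.7%. The log2 fold changes ran from -0.073 for B2m to 0.092 for Tapbp, with H2-D1 at 0.012 and H2-K1 at 0.051. Their median was 0.051, and 1 of the 7 was below 0, beside 49.8% of all genes. The widest of the 95% intervals, of Cd74, was -0.32 to 0.45, and that of Tap2, the narrowest, was -0.13 to 0.18.

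Between the doses 0 of the 7 genes were called, where 0.851% of all genes were (at 100 µg/ml 0.215% higher and 0.636% lower). Without adjustment the count under 0.05 was 0 of 7 beside 14.3% of all genes, and without overlap 0 of 7 beside 19.4%. The gene nearest to a call was Tap2, with a log2 fold change of -0.14 (SE 0.068, 95% interval -0.29 to 0.015, limma adjusted p = 0.400, unadjusted 0.0722). Tap1 had -0.16 (SE 0.10, limma adjusted p = 0.539) and Tapbp -0.10 (SE 0.10, limma adjusted p = 0.698), so the 3 loading genes were on the same side of 0 without passing the test. H2-D1 had 0.071, H2-K1 0.0028, B2m -0.035 and Cd74 -0.13, with limma adjusted p from 0.731 to 0.993. The interval of Cd74 was the widest, from -0.51 to 0.25. The median was -0.10, and 5 of 7 were below 0 beside 49.8% of all genes. These comparisons share libraries pairwise and are not independent of each other.

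**Figure D3:**
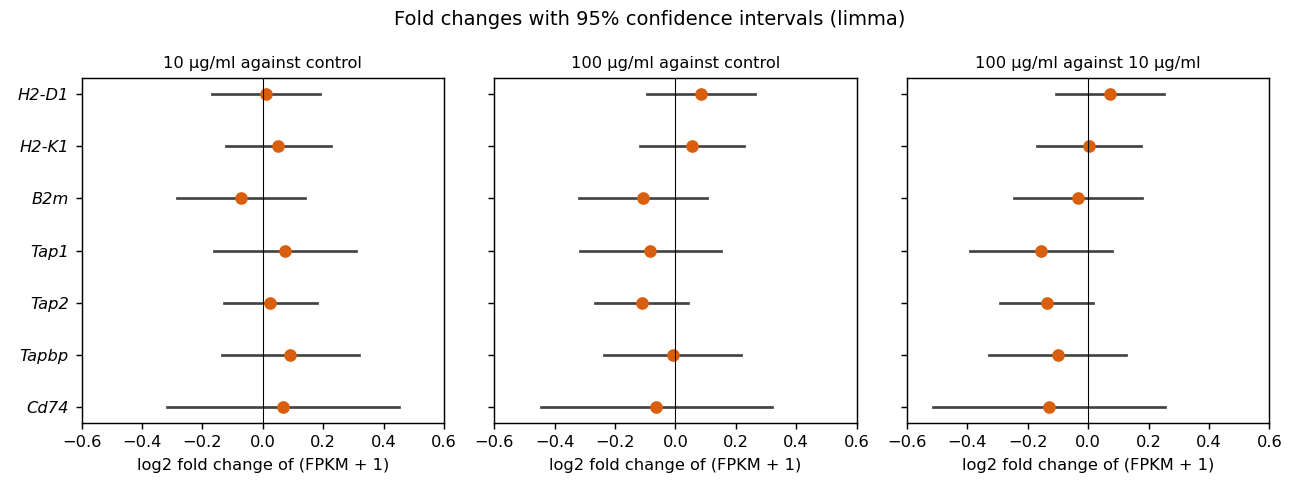
Fold changes of the 7 tested genes on the log2(FPKM + 1) scale with their 95% confidence intervals from limma, for the 3 comparisons. Every interval includes 0, the narrowest are those of Tap2 and the widest those of Cd74.

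Within a library the balance of the class I subunits was compared as a ratio, which does not depend on the scaling of the library. The ratio of B2m to the sum of H2-D1 and H2-K1 was 3.48, 2.96 and 2.94 in control cells, 2.92, 2.87 and 3.0 at 10 µg/ml, and 2.70, 2.80 and 2.73 at 100 µg/ml. The 3 libraries at 100 µg/ml were below all other libraries, and control and 10 µg/ml overlapped. The means were 3.13 ± 0.307, 2.93 ± 0.0661 and 2.74 ± 0.0506 (SD, n = 3 each). The difference between 100 µg/ml and control was -0.388 and that between 100 µg/ml and 10 µg/ml -0.187, each with p = 0.1 in a two-sided exact permutation test, the smallest value that 3 libraries against 3 allow, so this design could not pass 0.05. The difference between 10 µg/ml and control was -0.201 (exact permutation p = 0.4). Without control replicate 1, whose ratio was the highest, the difference at 100 µg/ml was -0.210, so that library set much of its size. The ratio was examined after the values were known, as 1 of 3 ratios and 9 comparisons, over which the Benjamini-Hochberg adjusted p was 0.45 for both. H2-D1 over H2-K1 and Tap2 over Tap1 had exact permutation p between 0.2 and 0.8.

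**Figure D4:**
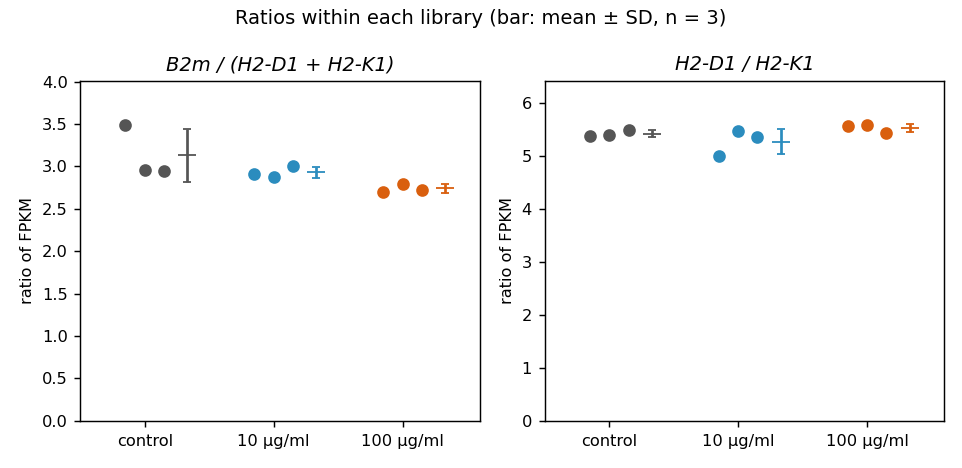
Ratio of B2m to the sum of H2-D1 and H2-K1 and ratio of H2-D1 to H2-K1 in each library (points, vertical axes from 0), with the mean ± SD (n = 3) beside each group. For the B2m ratio the 3 points at 100 µg/ml, from 2.70 to 2.80, lie below the others, while for the heavy chain ratio the 100 µg/ml points overlap with the others.

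Tap1 and Tap2 lie in a cluster with the immunoproteasome genes Psmb9 and Psmb8, whose products trim proteins into peptides that suit class I grooves. Psmb9 is on the minus strand and its span overlaps that of Tap1 by 212 bases, Psmb8 begins 495 bases after Tap1 and Tap2 begins 2072 bases after Psmb8. The levels within this stretch were uneven: Psmb9 was at 2.18, Tap1 at 5.62, Psmb8 at 54.3 and Tap2 at 9.72 FPKM. Psmb8 exceeded Psmb9 by 20.3 to 32.2 times in the 9 libraries, with a median of 25.3. A kit named in the labels keeps the strand, and whether the authors' estimates used it is not stated in the sources used here, so reads from the overlap of Psmb9 and Tap1 may not be assigned with certainty. None of the 5 immunoproteasome genes listed (Psmb8, Psme1 at 41.8 FPKM, Psmb10 at 18.4 FPKM, Psme2 and Psmb9) was called in any of the 3 comparisons or had an unadjusted p under 0.05. Their median log2 fold change at 100 µg/ml against control was -0.028.

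**Figure D5:**
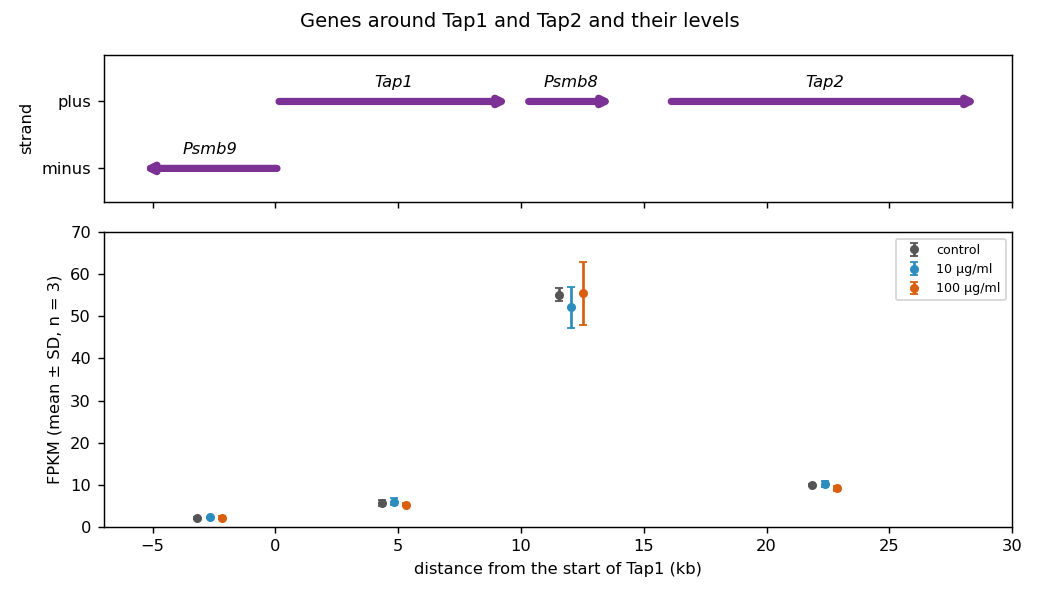
Gene spans and strands around Tap1 by distance from the Tap1 start in kb (upper panel) and the FPKM of each gene as mean ± SD (n = 3) for the 3 groups (lower panel). Psmb8 at 54.3 FPKM stands between Tap1 at 5.62 and Tap2 at 9.72 FPKM, and the groups overlap for each gene.

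Besides the 10 genes, 63 others of the pathway lists were followed, of which 48 were tested. With 100 µg/ml set against control, 1 of them was called higher and 2 were called lower, where 2.11% of all tested genes were called. The 9 that passed 0.05 without adjustment (18.75%) stood beside 19.4% of all genes. The 11 without overlap between groups (22.9%) stood beside 23.8%, so these 2 shares were near those of all genes tested. The median of the 48 was -0.066, and 32 of them were below 0, beside 50.4% of all genes. Against 10 µg/ml, 0 were higher and 2 lower, beside 0.851% of all genes called. There 37 of the 48 were below 0, beside 49.8% of all genes. Between 10 µg/ml and control limma called none, and the count under 0.05 without adjustment was 2 (4.17%) beside 3.28% of all genes. In that comparison 26 of the 48 were below 0, beside 49.8% of all genes.

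Cd83, a surface protein that opposes the ubiquitin-dependent turnover of class II and of Cd86, fell at 100 µg/ml. It measured 3.50, 3.18 and 3.58 FPKM in control cells, 3.55, 2.89 and 3.23 FPKM at 10 µg/ml, and 1.65, 1.18 and 1.52 FPKM at 100 µg/ml. All libraries at 100 µg/ml were below all others. The log2 fold change was -0.85 against control (SE 0.11, limma adjusted p = 0.00962) and -0.79 against 10 µg/ml (limma adjusted p = 0.0215). The scale understates changes of so low a gene, and with a pseudocount of 0.1 the values were -1.192 and -1.105. The call against control was lost without control replicate 1 (limma adjusted p = 0.0505). The call against 10 µg/ml was lost without any single library of those compared other than replicate 1 at 100 µg/ml (limma adjusted p from 0.0528 to 0.108). March8, a ligase that can target class II, was at 45.3 FPKM in control cells and 37.5 FPKM at 100 µg/ml (limma adjusted p = 0.393). Cd86 itself was at 16.5 and 13.9 FPKM (limma adjusted p = 0.170).

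Lgmn, the endosomal protease asparaginyl endopeptidase, also fell at 100 µg/ml. It measured 438, 438 and 422 FPKM in control cells, 428, 422 and 416 FPKM at 10 µg/ml, and 365, 346 and 330 FPKM at 100 µg/ml. The log2 fold change was -0.32 against control (SE 0.051, limma adjusted p = 0.0191) and -0.28 against 10 µg/ml (limma adjusted p = 0.0475). Of the 6 libraries compared in each case, leaving out any one other than replicate 1 at 100 µg/ml ended the call, with limma adjusted p from 0.0527 to 0.0993 and from 0.109 to 0.201. The other 5 genes of endosomal processing were not called, with Ctsd at 0.092 and Ctsb at 0.013 (log2, limma adjusted p = 0.571 and 0.914).

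Rela, which encodes an NF-kB subunit that can bind the kappa B letters shown above, rose at 100 µg/ml. B2m, H2-D1 and H2-K1 were not called, and a link between them and Rela was not tested. Rela measured 20.9, 20.8 and 22.1 FPKM in control cells, 22.5, 22.7 and 24.1 FPKM at 10 µg/ml, and 26.2, 25.7 and 25.4 FPKM at 100 µg/ml. The log2 fold change was 0.27 against control (SE 0.051, limma adjusted p = 0.0370) and 0.15 against 10 µg/ml (limma adjusted p = 0.231). Of the 6 control and 100 µg/ml libraries, leaving out any one other than replicate 1 at 100 µg/ml ended the call (limma adjusted p from 0.0656 to 0.153). Nfkb1, which encodes the p50 partner, was at 50.4 FPKM in control cells and 45.2 FPKM at 100 µg/ml (limma adjusted p = 0.138). Of the other regulators, Nlrc5, the coactivator of class I genes, was at 18.3 FPKM with a log2 fold change of -0.044 (limma adjusted p = 0.878). Of the interferon-gamma receptor chains, Ifngr1 had a log2 fold change of -0.29 (limma adjusted p = 0.0836) and Ifngr2 one of 0.092 (limma adjusted p = 0.390).

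Across the 9 libraries the 6 class I genes had coefficients of variation of 6.43% to 10.8% and did not follow a single course. As a description, Pearson's r of log2 values was 0.877 between H2-D1 and H2-K1, 0.709 between Tapbp and Tap1 and 0.570 between Tap2 and Tap1, but -0.169 between Tap1 and H2-D1 and -0.216 between Tapbp and B2m (n = 9 libraries each). The mean of the standardized log2 values of the 6 genes was 1.060 in replicate 1 at 100 µg/ml, -1.067 in replicate 2 and -0.757 in replicate 3, against -0.154 to 0.184 in control cells and -0.210 to 0.589 at 10 µg/ml. The genes whose course was most like that mean were Gm4950 (Pearson r = 0.969 over 9 libraries), Lamtor1 (r = 0.952), Fam195b (r = 0.942), Plaur (r = 0.938) and Tecr (r = 0.937), chosen as the highest among the tested genes outside the 10. The points share libraries and depth, and 5 genes picked from so many will correlate highly, so these are descriptions only.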

How the data were processed

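RNA of BV2 cells was sequenced from 9 libraries, in 3 groups of 3. Per the paper's methods and the submitters' processing notes, reads of low quality were dropped by the authors, who aligned the rest with TopHat and ran Cufflinks 2.1.1 against Ensembl release 77, which gave the deposited FPKM of each gene and library. Fragment bias and multiply mapped reads were corrected there, and replicates were not pooled. No counts are used here, and depth was estimated at 13000000 to 16200000 fragments per library from the steps between low FPKM values, assuming fragments of 200 bases. Of 4108 values 74.4% were within 0.25 fragments of a whole number. The depth was chosen to bring these same values near whole numbers, so the 50% of an arbitrary depth is not a fair baseline. This depth is approximate and no reads were recovered.

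Samples were grouped by the labelled treatment. FPKM was transformed to log2(FPKM + 1), and 11161 genes whose mean reached 1 FPKM entered limma 3.58.1 (R 4.3.3), with 3 groups in 1 fit, the trend option and Benjamini-Hochberg adjustment at 0.05. The procedure was tested on simulated data. Cuffdiff, which the study used, needs alignments and was not run. Ratios were compared with exact permutation tests (scipy 1.17.1). Coordinates are those of the deposited table. Shared stretches of 100 bases and exons came from GENCODE M21 (GRCm38) and promoters from RefSeq (GRCm38.p6). Alternatives changed the pseudocount (0.1, 0.01), the filter (none, 5 FPKM), the scaling (quantile, median-of-ratios), the trend option or the libraries (each left out, or a fit of the 6 compared), or added a replicate block.

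The 10 genes, the gene lists and the cell type markers were chosen with earlier results of these data known. The genes named are the 10, list genes called in any comparison, up to 3 others of highest level per list and the 5 most alike genes. H2-Q1, the class II genes at 0, Nlrc5, the remaining cluster genes and markers were named after their values were seen.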

Additional observations from a re-analysis of the deposited data

How the results depend on the processing

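None of the 7 tested genes was called in any comparison under any alternative. H2-Aa and H2-Ab1, listed at 0 throughout, entered no fit and so could not be called. Ciita entered only the fit with no filter and was not called there. Of 312 fold changes of the 7 tested genes over 21 results, 290 kept their sign, the smallest adjusted p was 0.2023 and the largest change was 0.3108 in size (log2). Quantile scaling reversed B2m at 10 µg/ml against control (0.01246) and H2-K1 between the doses (-0.004291). The other 20 reversals came from leaving out single libraries: at 100 µg/ml against control H2-D1 ranged from -0.01185 to 0.1454, H2-K1 from -0.03488 to 0.1217, Tapbp from -0.1181 to 0.05521 and Cd74 from -0.2442 to 0.05934. At 10 µg/ml against control H2-D1 ranged from -0.009687 to 0.04196, B2m from -0.1232 to 0.009045, Tap1 from -0.0143 to 0.1462, Tap2 from -0.01076 to 0.07297, Tapbp from -0.01747 to 0.1559 and Cd74 from -0.04948 to 0.149. Between the doses H2-D1 ranged from -0.02396 to 0.1333, H2-K1 from -0.08632 to 0.07029 and B2m from -0.1182 to 0.01425.

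Over all genes, the 236 called at 100 µg/ml against control became 106 with a replicate block, 22 with only the 6 libraries compared, and 31 (without control replicate 2) to 539 (without replicate 1 at 100 µg/ml) with a library left out. The 0 at 10 µg/ml against control became 4 with no filter, 1 with only 6 libraries, and 0 to 2 with a library left out. The 95 between the doses became 13 with the block, 6 with only 6 libraries, and 8 (without replicate 1 at 10 µg/ml) to 191 (without replicate 1 at 100 µg/ml). Deviations of same-numbered libraries correlated at -0.088 to 0.153 across genes, beside -0.166 to 0.143 for libraries of different numbers. The labels do not say whether an equal number marks a shared batch, and these correlations do not decide it. Fewer libraries leave fewer degrees of freedom; otherwise the cause was not tested. At 100 µg/ml against control Rela was not called with the block (0.0864) or only 6 libraries (0.112), Lgmn not under quantile scaling (0.0732) or 6 libraries (0.0976) and Cd83 not with 6 libraries (0.0561). Between the doses Lgmn was not called with no filter, quantile scaling, the block, no trend or 6 libraries (0.0734 to 0.186), and Cd83 not with the block (0.0504) or 6 libraries (0.100). These are limma adjusted p-values of list genes, whose alternatives were added after seeing the data. The filter at 5 FPKM gives no value for Cd74 or Cd83. The ratio of B2m to the heavy chains kept its direction with each library left out (-0.4807 to -0.2104 and -0.2163 to -0.1512 for 100 µg/ml against control and 10 µg/ml). The FPKM files hold no counts, which limits statements on genes at 0.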
